A study of Drosophila melanogaster with 4 samples.

Results

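Translation initiation factors and elongation factors were followed in larvae of Drosophila melanogaster in the third instar, in larvae trisomic for 2L and in larvae with the normal chromosome set. A gene belonged to the set if its name in the deposited tables began with eIF, Ef1 or Ef2, which gave 33 genes out of 14161, read from 71 of 22738 transcript rows. Of these genes 17 had 1 transcript row, and the others were taken as the mean of their rows. The groups were trisomic males, trisomic females, normal males and normal females, with 4 biological replicates named for each in the labels. In trisomic larvae the left arm of chromosome 2 is present in 3 copies in place of 2. The normal larvae come from Cantons, a wild-type stock, per the series text. The sources used here do not say how the trisomic larvae were obtained or what else in their genotype differs, so karyotype and genetic background cannot be told apart. All stocks were kept at the same temperature, per the labels.

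Each group is represented by 1 column, the authors' mean of its replicates in counts per 1000000 (CPM). No replicate values were analysed here, so the differences below are sizes without an error, a test or a p-value. A change is the difference in log2(CPM + 1), which understates the change of genes at low levels. In whole larvae, fewer cells of a type and less RNA per cell cannot be told apart. Over the 4 groups, 6308 genes averaged 10 CPM or more. On the deposited scale 4069 of them, on 2R, 3L and 3R, had a median change of -0.31 in trisomic males over normal males and -0.20 in trisomic females over normal females. Changes less these medians are called centred below. The median of 2L genes exceeded that of genes elsewhere by 0.37 in males and 0.36 in females.

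Translation of a messenger RNA begins when eIF4E binds its cap and eIF4G, eIF4A and eIF4B prepare the leader for the small ribosomal subunit, which carries eIF3, eIF1A and the initiator tRNA held by eIF2. eIF2 is recharged with GTP by eIF2B, and eIF5 and eIF5B act at start codon choice and subunit joining. During elongation eEF1A delivers aminoacyl-tRNA and is recharged by the eEF1B subunits, and eEF2 moves the ribosome along the message. In Drosophila several eIF4E forms and an eIF4G paralog are known from the testis, where they serve the development of spermatocytes and sperm.

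Levels in the set ran from 0.0932 CPM for eIF4E-4 in normal females to 7717 CPM for Ef1alpha48D in trisomic females. The 5 elongation factors summed to 12323 CPM in trisomic males, 12842 CPM in trisomic females, 8634 CPM in normal males and 11076 CPM in normal females. As a share of the total over 1 value per gene, they made up 2.51% in trisomic males and 2.59% in trisomic females, against 1.65% in normal males and 2.10% in normal females. The 22 initiation factors that were not male-limited made up 0.682% in trisomic males and 0.708% in trisomic females, against 0.692% in normal males and 0.724% in normal females. The share of the elongation factors was thus larger in both trisomic groups. That of the body-wide initiation factors was within a few hundredths of a percentage point of the normal group of the same sex. This group rests on the eIF names and includes eIF-5A, which the reference annotation names eEF5. In males eIF-5A had 524.4 CPM in trisomic and 921.2 CPM in normal larvae, while eIF-4a had 1123 CPM in trisomic and 709.8 CPM in normal larvae. Opposite changes thus offset each other in the sum, and the share without eIF-5A was not computed.

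**Figure D1:**
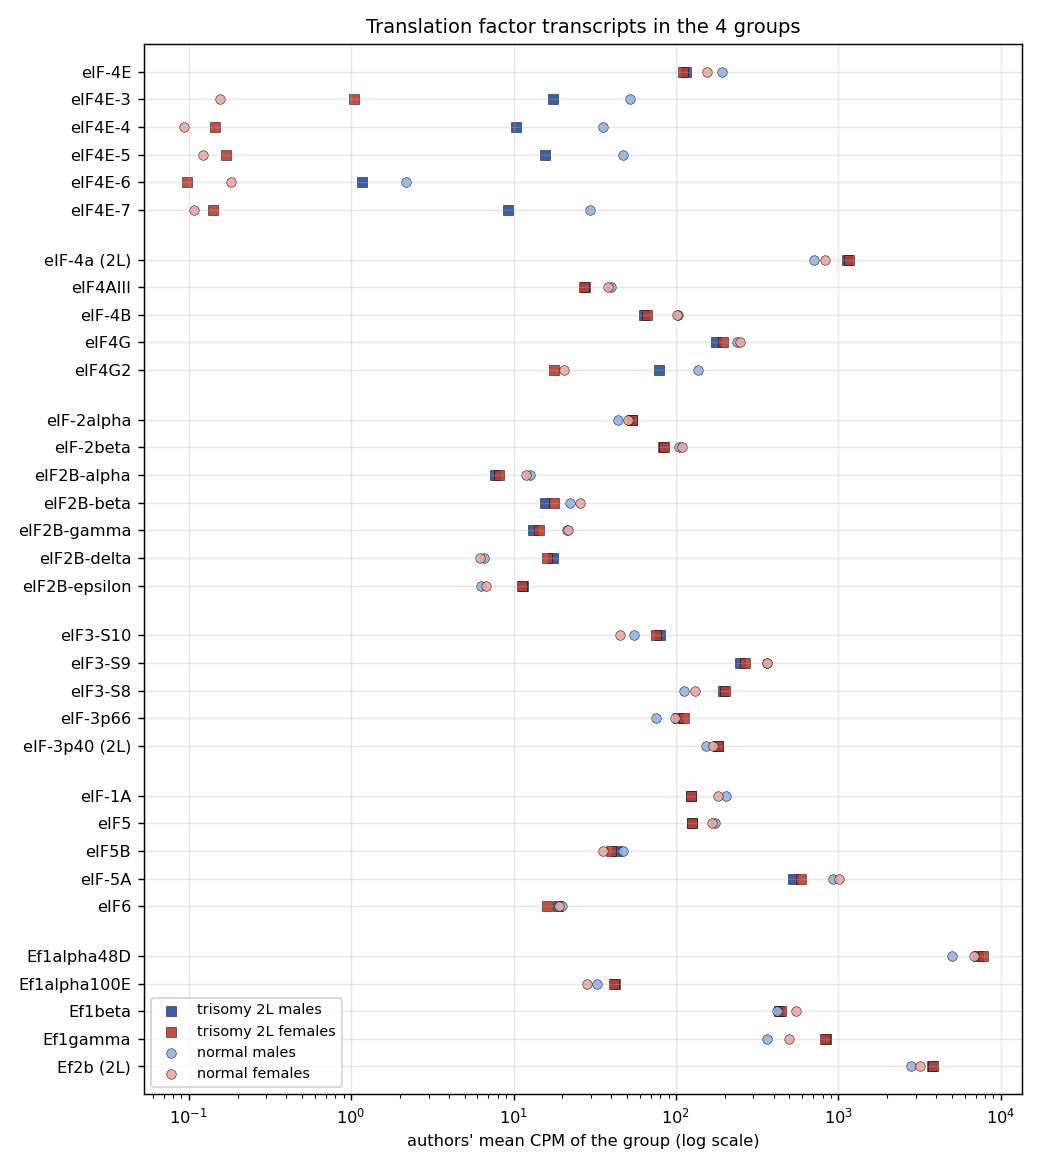
Mean CPM of each group (log axis) for the 33 factors, ordered by role, with trisomy 2L groups as squares and normal groups as circles. Ef1alpha48D and Ef2b lie farthest right in every group, at 2786 CPM or more, and the male-limited eIF4E forms stand far to the left in females, at 1.04 CPM or less.

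Of the 33 factors, 6 had a level at least 2-fold higher in normal males than in normal females, and these are called male-limited. The name stands for that size alone, since eIF4G2, which is among the 6, had 20.3 CPM in normal females. The other 27 are called body-wide. The sex difference in normal larvae therefore chose the male-limited factors and is given as a description. With no filter on level, 14.3% of all genes were at least 2-fold higher in normal males. Of the 30 factors that averaged 10 CPM or more, 4 were so, against 9.32% of all genes with that average, and none was 2-fold lower, against 0.523% of those genes. The 3 factors under that average were eIF4E-6, eIF4E-7 and eIF2B-epsilon. The male-limited eIF4E forms that reached it did so through their level in males.

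Among the cap-binding proteins, eIF-4E, the general form, is on 3L and is expressed in both sexes. It stood at 115.4 CPM in trisomic males, 109.8 CPM in trisomic females, 191.1 CPM in normal males and 154.3 CPM in normal females. Both trisomic groups lay below both normal groups, with changes of -0.72 in males and -0.49 in females. Centred, the changes were -0.41 in males and -0.29 in females. In trisomic males the level was close to that of trisomic females, whereas normal males exceeded normal females by 0.31 on the log2 scale.

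The other 5 eIF4E forms, eIF4E-3 to eIF4E-7, were below 0.2 CPM in both female groups, except eIF4E-3 in trisomic females. eIF4E-3, which is needed for meiosis in the male germ line, had 17.5 CPM in trisomic males, 1.04 CPM in trisomic females, 52.4 CPM in normal males and 0.155 CPM in normal females. eIF4E-5 had 15.6 CPM in trisomic males, 0.171 CPM in trisomic females, 47.5 CPM in normal males and 0.122 CPM in normal females. Each was thus much higher in males of both karyotypes, and lower in trisomic males than in normal males. eIF4E-4 had 10.3 CPM in trisomic males, 0.144 CPM in trisomic females, 35.5 CPM in normal males and 0.0932 CPM in normal females. eIF4E-7, on the X chromosome, had 9.19 CPM in trisomic males, 0.141 CPM in trisomic females, 29.7 CPM in normal males and 0.109 CPM in normal females. eIF4E-6 was the lowest of these forms in males, at 1.17 CPM in trisomic males, 0.0980 CPM in trisomic females, 2.17 CPM in normal males and 0.183 CPM in normal females. The forms are related in sequence, so reads may have been shared between them. The sources used here do not say how values near 0 were set, and ratios over females rest on values below 0.2 CPM in normal larvae.

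In trisomic males eIF4E-4 was at 0.290 times the CPM of normal males, eIF4E-7 at 0.309 times, eIF4E-5 at 0.327 times and eIF4E-3 at 0.334 times. These 4 forms lay within a narrow band, and eIF4E-6 was at 0.538 times. On the log2 scale the 5 changes ran from -1.69 for eIF4E-4 to -0.55 for eIF4E-6. This comparison uses the normal male values that also chose the forms. The comparison of trisomic males with trisomic females does not, and there 4 of the 5 forms were again at least 2-fold higher, with changes of 3.82 for eIF4E-5, 3.30 for eIF4E-4, 3.18 for eIF4E-3 and 3.16 for eIF4E-7, while eIF4E-6 had 0.98. Over all factors with no filter, 5 of 33 were at least 2-fold higher in trisomic males, against 11.1% of all genes. Among factors that averaged 10 CPM or more they were 4 of 30, against 7.72%, and none was 2-fold lower, against 0.412%. Of these 4, eIF4E-3, eIF4E-4 and eIF4E-5 reached that average through males alone. The filter thus favoured a higher level in males, and the count of 4 is a description only.

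Set against eIF-4E per kilobase of mRNA, the makeup of the eIF4E messages differed between the male groups. The male-limited forms summed to 49.4 CPM per kb in trisomic males, 1.54 CPM per kb in trisomic females, 153 CPM per kb in normal males and 0.695 CPM per kb in normal females. eIF-4E had 77.5 CPM per kb in trisomic males, 73.7 CPM per kb in trisomic females, 128 CPM per kb in normal males and 104 CPM per kb in normal females. The ratio of the male-limited forms to eIF-4E was 0.638 in trisomic males and 1.19 in normal males. Per kilobase the general form was thus the larger part in trisomic males and the smaller in normal males. In CPM without length it was the larger in both, at 115.4 against 53.7 in trisomic males and 191.1 against 167.3 in normal males. The normal male values also chose these forms. The ratio in females was 0.0208 in trisomic and 0.00671 in normal larvae.

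eIF4G2, a paralog of the scaffold protein eIF4G that is needed for meiosis and sperm development in Drosophila males, was the sixth male-limited factor. It had 79.1 CPM in trisomic males, 17.9 CPM in trisomic females, 135.8 CPM in normal males and 20.3 CPM in normal females. Unlike the eIF4E forms it was well above 0 in females, and its ratio between normal males and normal females was 6.69. Trisomic males had 0.582 times the CPM of normal males, a change of -0.77. The change in females was -0.18, which turned to 0.02 when centred. Per kilobase, eIF4G2 was 0.326 times eIF4G in trisomic males, 0.0665 times in trisomic females, 0.415 times in normal males and 0.0594 times in normal females. An annotated gene, CG33111, shares 8.56% of the exonic bases of eIF4G2 on the same strand.

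Outside the naming rule, 31 other genes of the pathway were followed, and 6 of these were at least 2-fold higher in normal males than in normal females, against 14.3% of all genes. They were 4 paralogs of initiation factors, cup, a partner of eIF4E, with 89.5 CPM in normal males and 9.29 CPM in normal females, and Paip2, an inhibitor of the poly(A)-binding protein, with 72.4 CPM in normal males and 34.7 CPM in normal females. The 4 paralogs are described here because of that difference, which is therefore no result about them. CG4810, a paralog of the d subunit of eIF3, had 11.6 CPM in trisomic males, 0.109 CPM in trisomic females, 26.6 CPM in normal males and 0.0926 CPM in normal females. CG1340, a paralog of eIF4H, had 20.9 CPM in trisomic males, 0.214 CPM in trisomic females, 38.5 CPM in normal males and 0.137 CPM in normal females. Trisomic males had 0.436 times the level of normal males for CG4810 and 0.543 times for CG1340. The same ratio was 0.407 for CG10881, a paralog of the g subunit of eIF3, and 0.541 for CG8335, a paralog of the f subunit. The paralogs were named by the reference annotation.

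Most marker genes of testis and spermatocytes were also lower in trisomic males. Of a list of 30 such genes, 29 were found. Their levels summed to 571.6 CPM in trisomic males, 26.0 CPM in trisomic females, 1557 CPM in normal males and 22.1 CPM in normal females. None was at 0, while 20 were under 1 CPM in trisomic females and 22 in normal females. In males 24 of the 29 were at least 1.5-fold lower in trisomic than in normal larvae, against 26.4% of all genes with no filter on level, and the median ratio was 0.362. Of the 27 with at least 5 CPM in normal males, the ratios ran from 0.228 to 0.930, and 14 of the 27 had a lower ratio than eIF4E-3, 7 a lower ratio than eIF4E-4 and 21 a lower ratio than eIF4G2. The 2 markers below 5 CPM were comr, with a ratio of 0.537, and tomb, which went the other way with 1.94 CPM in trisomic males and 1.03 CPM in normal males, a ratio of 1.88. The male-limited factors thus lay inside the range of the testis genes. The part of testis size or content in their levels was not tested. A list of 10 genes of the germ line and ovary, all found, summed to 205.0 CPM in trisomic males, 193.6 CPM in trisomic females, 263.1 CPM in normal males and 240.7 CPM in normal females, most of it from tud. On the log2(CPM + 1) scale none of these 10 was at least 1.5-fold lower in trisomic males, and their median change there was -0.11. Their median CPM ratio was 0.797. Only 4 had at least 5 CPM in normal males, with ratios from 0.683 to 1.06. By CPM ratio, bam at 0.633 and osk at 0.519 were past that size, at 1.41 CPM for bam and 0.0618 CPM for osk in normal males. In that list vas, a helicase of the germ line, had 3.20 CPM in trisomic males and 1.61 CPM in normal males, a ratio of 1.99.

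**Figure D2:**
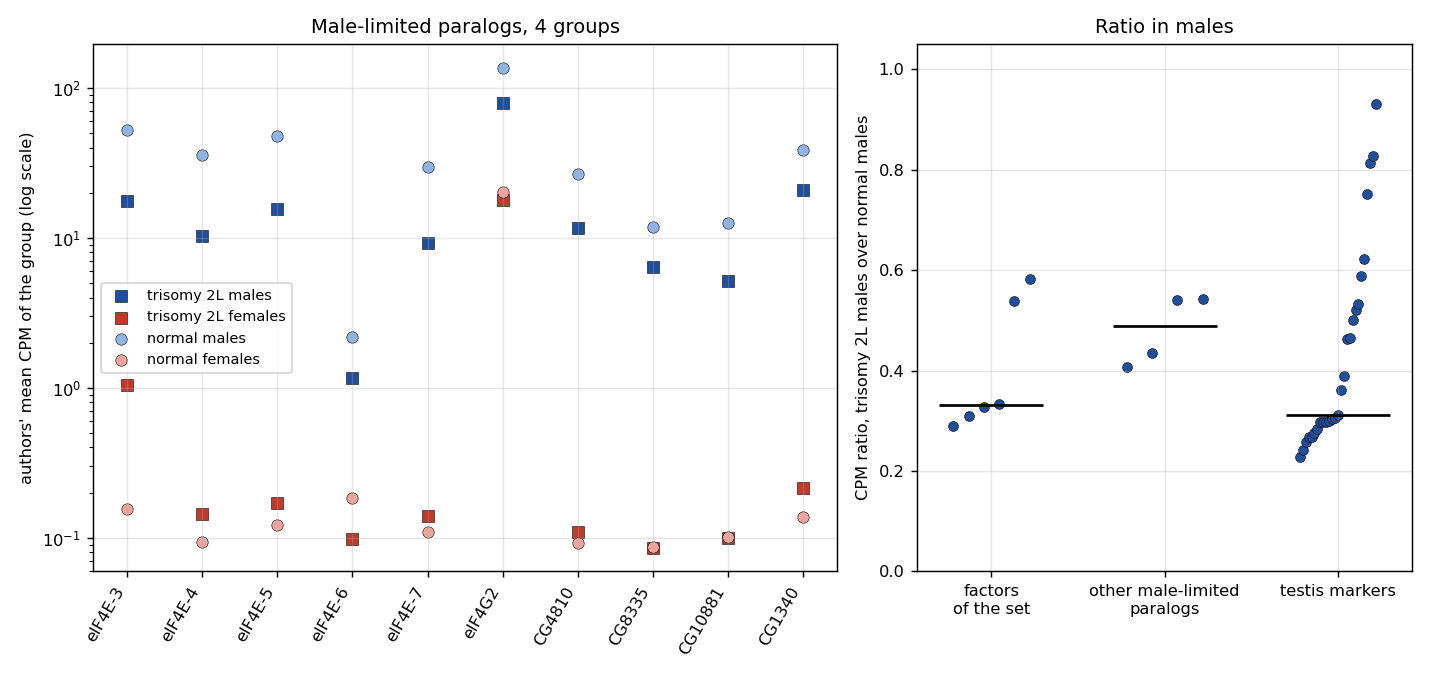
Left, mean CPM of each group (log axis) for the 6 male-limited factors and 4 other male-limited paralogs. Right, CPM ratio of trisomic over normal males for the same genes and for the 27 testis and spermatocyte genes with at least 5 CPM in normal males (1 point per gene, line at the median); tomb and comr, under that level, are not drawn. Every ratio drawn is below 1, and the 4 lowest of the factors lie between 0.290 and 0.334.

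Among the factors that act with eIF4E, eIF-4a, the RNA helicase that unwinds the leader, is on 2L. It had 1123 CPM in trisomic males, 1167 CPM in trisomic females, 709.8 CPM in normal males and 832.7 CPM in normal females. Both trisomic groups lay above both normal groups, with changes of 0.66 in males and 0.49 in females. Per kilobase the ratio of eIF-4a to eIF-4E was 7.90 in trisomic males, 8.63 in trisomic females, 3.02 in normal males and 4.38 in normal females. eIF4G, the scaffold, is on chromosome 4 and was lower in trisomic larvae, with changes of -0.43 in males and -0.35 in females. It had 176.8 CPM in trisomic males, 196.0 CPM in trisomic females, 239.1 CPM in normal males and 249.5 CPM in normal females. The median of the 59 genes of chromosome 4 was -0.56 in males and -0.47 in females.

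eIF-4B, a cofactor of the helicase, had 63.9 CPM in trisomic males, 65.97 CPM in trisomic females, 102.2 CPM in normal males and 101.7 CPM in normal females. The changes were -0.67 in males and -0.62 in females, and centred they were -0.36 in males and -0.42 in females. Its 4 transcript rows differed in level, from 30.5 to 133.5 CPM in normal males, and all were lower in trisomic larvae. The files place eIF-4B in the heterochromatin of 2R and the reference annotation places it on 3L. eIF4AIII, the helicase of the exon junction complex, had changes of -0.51 in males and -0.47 in females. Of the 4 body-wide factors of this role, eIF-4a was higher in trisomic larvae of both sexes and the other 3 were lower.

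In eIF2, which carries the initiator tRNA, eIF-2beta was the most abundant of the subunits measured. It had 83.3 CPM in trisomic males, 85.0 CPM in trisomic females, 104.7 CPM in normal males and 109.0 CPM in normal females, with changes of -0.33 in males and -0.36 in females. The X-linked eIF-2alpha, the subunit that stress kinases phosphorylate, had 53.5 CPM in trisomic males, 53.9 CPM in trisomic females, 44.0 CPM in normal males and 50.6 CPM in normal females. Its changes were 0.28 in males and 0.09 in females, opposite in sign to those of eIF-2beta on the deposited scale and when centred. Against genes of like mRNA length, described further on, both were positive, at 0.74 in males and 0.46 in females for eIF-2alpha and 0.14 in males and 0.01 in females for eIF-2beta. The gene rngo overlaps 12.6% of the exonic bases of eIF-2alpha on the opposite strand, and the sources used here do not say whether reads were counted by strand.

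The 5 subunits of eIF2B, the exchange factor of eIF2, divided in both sexes. eIF2B-delta had 17.4 CPM in trisomic males, 16.1 CPM in trisomic females, 6.61 CPM in normal males and 6.24 CPM in normal females. Its changes were 1.28 in males and 1.24 in females. At such a level the size depends on the pseudocount, and with 5 CPM in place of 1 the change in males was 0.95, below the 1.20 of Ef1gamma. eIF2B-epsilon, on the X chromosome, carries the catalytic domain and had 11.4 CPM in trisomic males, 11.3 CPM in trisomic females, 6.26 CPM in normal males and 6.77 CPM in normal females. Its changes were 0.78 in males and 0.66 in females. The other 3 subunits were lower in trisomic larvae. eIF2B-alpha had changes of -0.66 in males and -0.50 in females, eIF2B-beta of -0.49 in males and -0.50 in females, and eIF2B-gamma of -0.66 in males and -0.56 in females. Per kilobase the ratio of eIF2B-delta to eIF2B-gamma was 0.9996 in trisomic males, 0.847 in trisomic females, 0.233 in normal males and 0.218 in normal females. Centring kept the 2 higher and 3 lower subunits. Against genes of like mRNA length eIF2B-delta stood at 1.64 in males and 1.49 in females and eIF2B-epsilon at 0.94 in males and 0.73 in females, while the other 3 lay between -0.20 and 0.01 over both sexes.

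eIF3, the large complex on the small ribosomal subunit, has 13 subunits, of which 5 are named by the rule. eIF3-S9, the b subunit, was the most abundant of these 5 by mean level. It had 247.3 CPM in trisomic males, 267.2 CPM in trisomic females, 363.0 CPM in normal males and 361.0 CPM in normal females, with changes of -0.55 in males and -0.43 in females. eIF3-S8, the c subunit, had 194.5 CPM in trisomic males, 199.99 CPM in trisomic females, 111.6 CPM in normal males and 131.8 CPM in normal females. The c subunit was thus higher in trisomic larvae, by 0.80 in males and 0.60 in females, and the b subunit lower. eIF3-S10, the a subunit, had changes of 0.52 in males and 0.72 in females. eIF-3p66, the d subunit, had changes of 0.43 in males and 0.18 in females. eIF-3p40, the h subunit, is on 2L and had 181.3 CPM in trisomic males, 182.3 CPM in trisomic females, 153.9 CPM in normal males and 168.4 CPM in normal females. Its changes were 0.23 in males and 0.11 in females, and senju overlaps 16.8% of its exonic bases on the opposite strand.

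With the 8 subunits that carry other names, 6 of the 13 eIF3 messages were higher with trisomy in both sexes, against 34.6% of genes that averaged 10 CPM or more, and 7 were lower in both, against 47.7%. All 13 had that average, and on the deposited scale both shares lay near those of all genes. The changes spanned 1.84 log2 units in males and 1.35 in females. The highest in males was CG8636, the X-linked g subunit, with 78.8 CPM in trisomic males, 72.1 CPM in trisomic females, 35.6 CPM in normal males and 49.5 CPM in normal females, which gave changes of 1.12 in males and 0.53 in females. Trip1, the i subunit, on 2L, had changes of 0.15 in males and 0.07 in females. The lower ones were eIF3-S9, Int6, CG9769, Adam, CG10306, CG5642 and Tango7. Besides eIF3-S9 these had changes from -0.71 for CG5642 to -0.32 for CG9769 in males, and from -0.63 for Tango7 to -0.49 for CG9769 in females. Centring left the same 6 higher and 7 lower, against 48.5% and 33.5% of genes with that average. The share that was lower was thus above that of all genes when centred. Against genes of like mRNA length the changes spanned 2.12 log2 units in males and 1.41 in females. On that scale 6 were higher in both sexes, against 48.7% of genes, and 6 lower in both, against 33.4%. CG9769 differed in sign between the sexes.

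**Figure D3:**
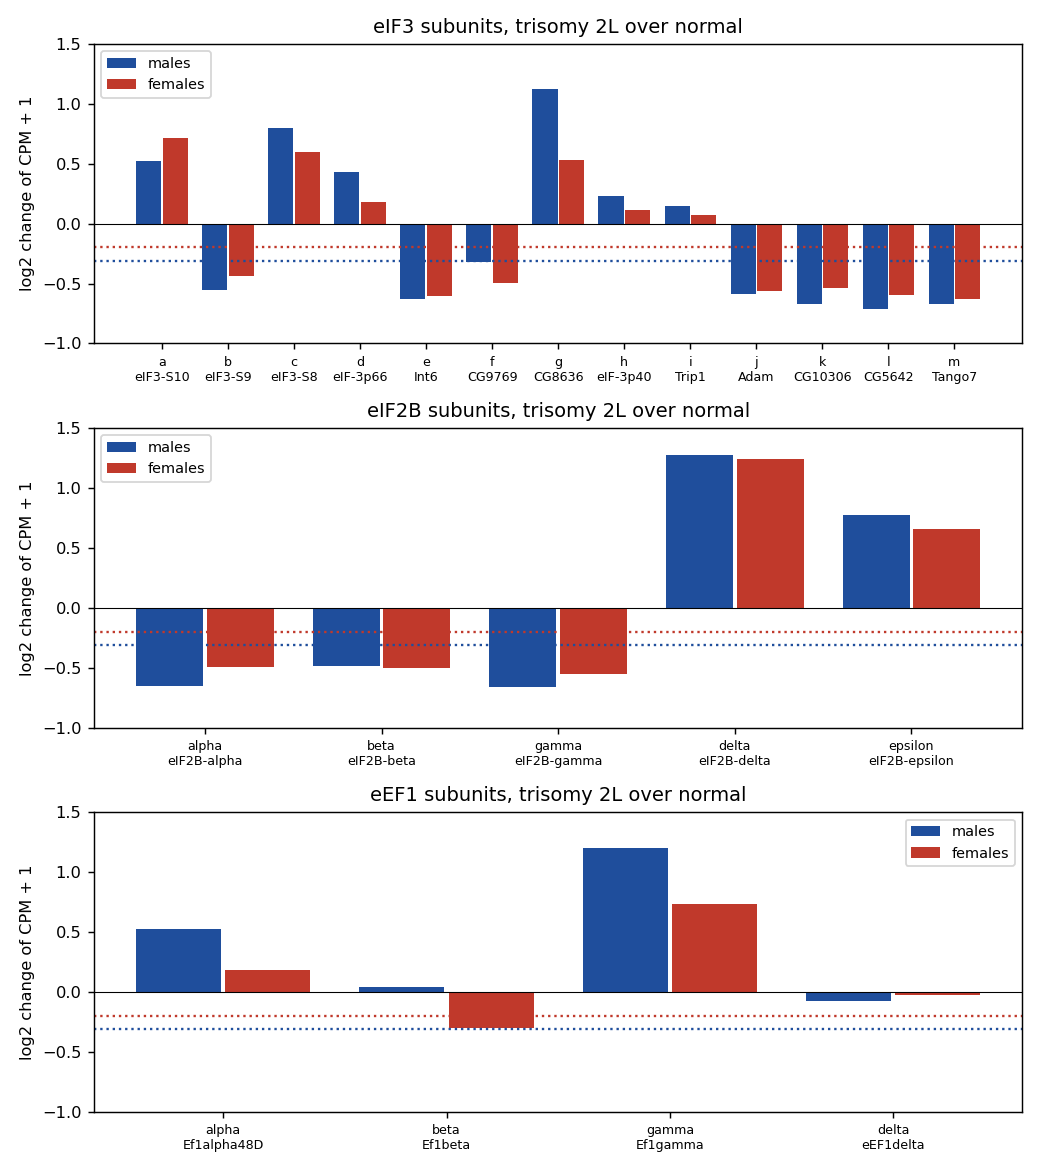
Log2 change of CPM + 1, trisomic over normal, for the subunits of eIF3, eIF2B and eEF1, with males left of females in each pair of bars and the median for 2R, 3L and 3R dotted in the colour of the sex. Subunits of the same complex lie on both sides of 0, from -0.71 to 1.12 in eIF3 and from -0.66 to 1.28 in eIF2B in males.

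Of the remaining factors with eIF names, eIF-5A was the most abundant. It binds the ribosome and helps it through difficult stretches of sequence. It had 524.4 CPM in trisomic males, 590.6 CPM in trisomic females, 921.2 CPM in normal males and 1010.1 CPM in normal females. The changes of -0.81 in males and -0.77 in females were the largest decreases among the body-wide factors on the deposited scale, and centred they were -0.50 in males and -0.57 in females. eIF-1A, which acts in scanning, had changes of -0.72 in males and -0.55 in females. eIF5, which triggers GTP hydrolysis by eIF2, had changes of -0.48 in males and -0.40 in females. The annotated gene CG46312 shares 80.8% of the exonic bases of eIF5 on the same strand, so the value of eIF5 is uncertain. eIF5B, which joins the subunits, had changes of -0.12 in males, which turned to 0.19 when centred, and of 0.15 in females. eIF6, which keeps free large subunits apart from small ones, had changes of -0.07 in males, which turned to 0.24 when centred, and of -0.23 in females.

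Ef1alpha48D, the main eEF1A gene, was among the 5 most abundant genes of every group. It had 7253 CPM in trisomic males, 7717 CPM in trisomic females, 5034 CPM in normal males and 6810.0 CPM in normal females. Normal males had the lowest level, 0.44 below normal females on the log2 scale, and the changes with trisomy were 0.53 in males and 0.18 in females. Its paralog Ef1alpha100E had 42.2 CPM in trisomic males, 41.4 CPM in trisomic females, 32.7 CPM in normal males and 28.5 CPM in normal females. The paralogs are close in sequence and may have shared reads, so the level of the rarer Ef1alpha100E is uncertain.

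The eEF1B subunits differed from each other. Ef1gamma, the structural subunit, had 836.8 CPM in trisomic males, 821.7 CPM in trisomic females, 362.5 CPM in normal males and 493.9 CPM in normal females. Its changes were 1.20 in males and 0.73 in females, which are CPM ratios of 2.31 in males and 1.66 in females. Ef1beta, an exchange subunit, had 429.6 CPM in trisomic males, 446.5 CPM in trisomic females, 418.6 CPM in normal males and 550.4 CPM in normal females. Its changes were 0.04 in males and -0.30 in females. Per kilobase, Ef1gamma was 1.03 times Ef1beta in trisomic males and 0.970 times in trisomic females, against 0.456 times in normal males and 0.473 times in normal females. The messages were thus near parity in trisomic larvae of both sexes and unequal in normal larvae of both sexes. eEF1delta, another exchange subunit, is on 2L and is named outside the rule. It had 127.2 CPM in trisomic males, 129.5 CPM in trisomic females, 133.8 CPM in normal males and 131.9 CPM in normal females. Its changes of -0.07 in males and -0.03 in females turned to 0.24 in males and 0.17 in females when centred. Against genes of like mRNA length Ef1beta stood at 0.65 in males and 0.21 in females, and eEF1delta at 0.54 in males and 0.48 in females. On that scale all 4 eEF1 messages, Ef1alpha48D included, were higher in both sexes, against 48.7% of genes. The directions of Ef1beta and eEF1delta thus depend on the scale.

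Ef2b, the eEF2 gene that moves the ribosome, is on 2L. It had 3762 CPM in trisomic males, 3816 CPM in trisomic females, 2786 CPM in normal males and 3193 CPM in normal females. Both trisomic groups lay above both normal groups, with changes of 0.43 in males and 0.26 in females.

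Between the sexes the body-wide factors spanned a narrower range in trisomic than in normal larvae. Trisomic males over trisomic females gave changes from -0.18 for eIF2B-beta to 0.21 for eIF6, and normal males over normal females from -0.45 for Ef1gamma to 0.40 for eIF5B. Among the elongation factors, Ef1gamma, Ef1alpha48D, Ef1beta and Ef2b lay between -0.09 and 0.03 in trisomic larvae. In normal larvae these 4 were lower in males, with Ef1gamma at -0.45, Ef1alpha48D at -0.44, Ef1beta at -0.39 and Ef2b at -0.20. The remaining elongation factor, Ef1alpha100E, went the other way in normal larvae, at 0.19, and was at 0.03 in trisomic larvae. The median for 2R, 3L and 3R was 0.07 in trisomic and 0.06 in normal larvae for this comparison. The spread of all genes was not taken for it, so the narrower range is not shown to be particular to the factors.

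Counted by size, 4 of the 30 factors that averaged 10 CPM or more were at least 1.5-fold higher in trisomic males than in normal males, against 17.0% of all genes with that average. At least 1.5-fold lower were 10, against 29.5% of all genes, and 4 of these 10 were male-limited. Of these, eIF4E-3, eIF4E-4 and eIF4E-5 reached the average through males, including the normal males that are the reference here. Without the male-limited factors 6 of 26 were lower, or 23.1%. In females 5 were at least 1.5-fold higher in trisomic larvae, against 15.3% of all genes, and 2 were lower, against 18.3%. One of the 5 was eIF4E-3, which had 1.04 CPM in trisomic females. Centred, 10 were higher and 3 lower in males, against 27.6% and 14.5% of all genes, and the 3 lower were all male-limited. In females 7 were higher and none lower when centred, against 22.3% and 7.51%, and eIF4E-3 was again among those higher. As shares of 30, 13.3% were higher and 33.3% lower in males on the deposited scale, and 16.7% were higher and 6.67% lower in females. In males the share that was higher lay near that of all genes. The share that was lower was 33.3% with the male-limited factors and 23.1% without them, on either side of the 29.5% of all genes. In females the share that was higher lay near that of all genes, and the share that was lower was below it, a count of 2 factors.

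Of the 26 body-wide factors that averaged 10 CPM or more, 3 were at least 1.5-fold higher in trisomic larvae of both sexes, against 12.4% of genes with that average. They were eIF2B-delta, eIF3-S8 and Ef1gamma. eIF2B-epsilon, which lay under that average, was past 1.5-fold in both sexes too. At least 1.5-fold lower in both sexes were 2, eIF-4B and eIF-5A, against 15.2% of genes. Centred, 6 were higher in both, against 19.5% of genes, with eIF-4a, eIF3-S10 and Ef1alpha100E added, and none was lower, against 4.85%. At any size, 11 of the 26 were higher with trisomy in both sexes on the deposited scale, against 34.6% of genes, and 13 lower, against 47.7%. Ef1beta and eIF5B differed in sign between the sexes on that scale, and Ef1beta and eIF6 did so when centred.

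**Figure D4:**
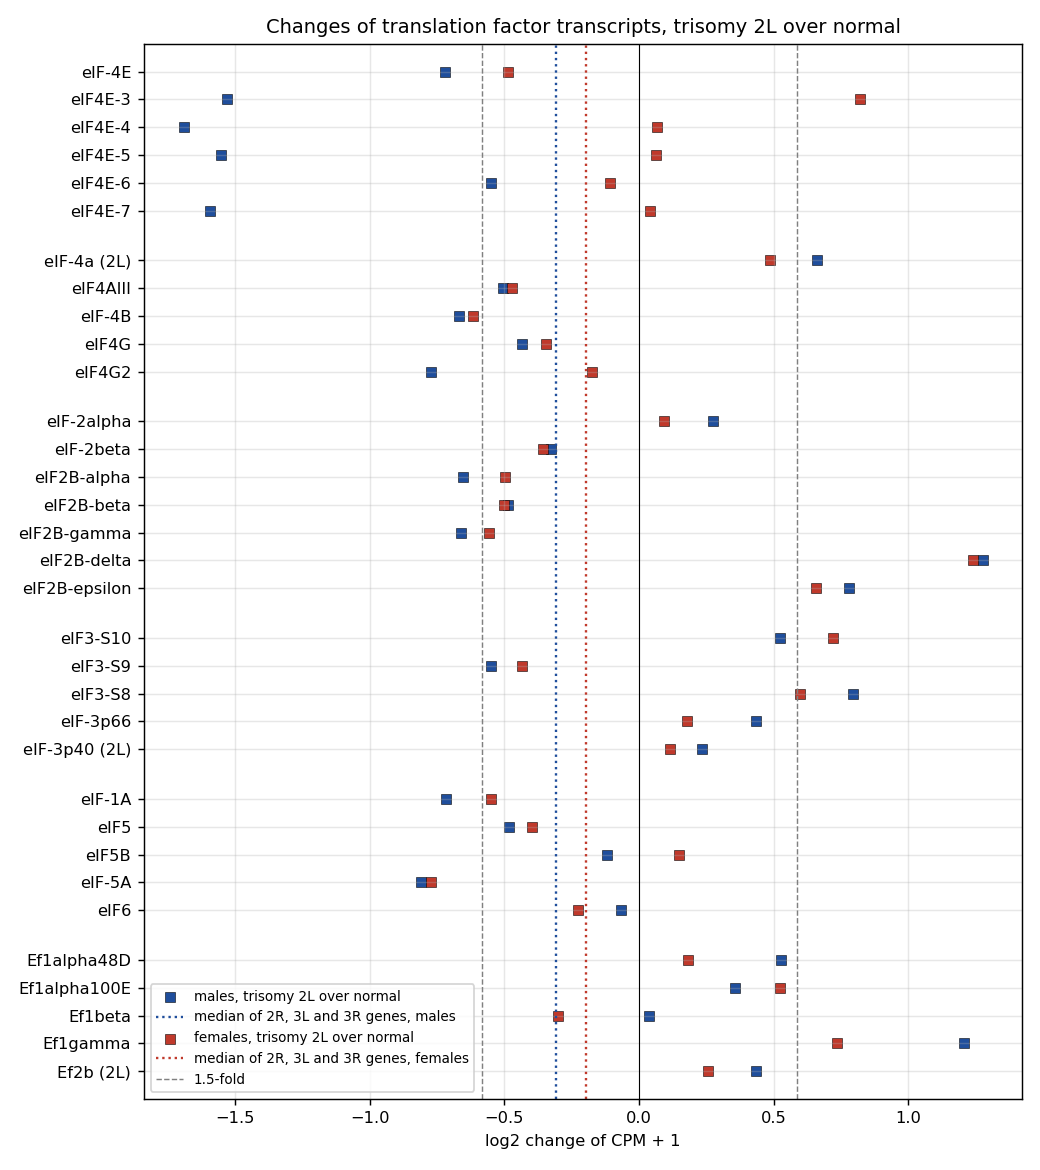
Log2 change of CPM + 1, trisomic over normal, in males (blue) and females (red) for the 33 factors by role, with 1.5-fold dashed and the median for 2R, 3L and 3R dotted. The male-limited eIF4E forms lie between -1.69 and -0.55 in males, and eIF2B-delta lies at 1.28 in males and 1.24 in females.

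The 3 factors on 2L, eIF-4a, eIF-3p40 and Ef2b, were higher with trisomy in males and in females. Of all 2L genes that averaged 10 CPM or more, 56.3% were higher in males and 69.4% in females. Their median change was 0.43 in males and 0.26 in females, and the median of 1270 genes of 2L was 0.10 in males and 0.19 in females. Among these 2L genes, eIF-4a stood at percentile 74.7 in males and 65.98 in females. Ef2b stood at percentile 64.5 in males and 55.8 in females. eIF-3p40 stood at percentile 57.0 in males and 43.0 in females. The 3 therefore lay in the middle and upper middle part of the arm. Other translation genes on 2L differed in their changes. Elf, the release factor eRF3, was higher by 0.82 in males and 0.92 in females, while Thor, the eIF4E-binding repressor, had changes of -0.55 in males and -0.28 in females. Against genes of like mRNA length, Thor stood at 0.058 in males and 0.23 in females, so its direction depends on the scale.

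Factors on 2L exceeded factors elsewhere by 0.91 in males and 0.49 in females as a difference of medians. Without the male-limited factors the difference was 0.66 in males and 0.58 in females, and over all genes it was 0.37 in males and 0.36 in females. Of the 24 body-wide factors elsewhere, changes ran from -0.81 to 1.28 in males and from -0.77 to 1.24 in females, so the 3 on 2L lay within the range of the others. The 18 body-wide factors on 2R, 3L and 3R had a median of -0.09 in males and -0.26 in females. The 4 on the X chromosome had a median of -0.10 in males and -0.15 in females, and the 875 X genes a median of -0.03 in males and 0.02 in females.

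Changes between karyotypes varied with the annotated length of the mRNA over all genes, and values for the factors are therefore also given against genes of like length. When genes on 2R, 3L and 3R were split into 5 equal classes by length, the median change was -0.61 in males and -0.51 in females in the shortest class, and -0.05 in males and 0.17 in females in the longest. Lengths were found for all 33 factors and for 98.1% of genes that averaged 10 CPM or more. The 13 body-wide factors in the 2 shorter classes had medians of -0.36 for 4 and -0.51 for 9 in males, and of -0.40 for 4 and -0.49 for 9 in females. eIF-5A has the shortest mRNA of the body-wide factors. Against genes of its own class it stood at -0.20 in males and -0.26 in females, and eIF-4B at -0.20 in males and -0.25 in females. Of the 30 factors that averaged 10 CPM or more, on that scale 10 were at least 1.5-fold higher in males, against 26.3% of genes. At least 1.5-fold lower were 4, all of them male-limited, against 13.7%. In females 6 were higher, against 19.6%, and none lower, against 7.03%. eIF4E-3 was among the 6, at 1.33, though it had 1.04 CPM in trisomic females and 0.155 CPM in normal females. It reached the average of 10 CPM through males. None of the 26 body-wide factors with that average was 1.5-fold lower in both sexes on the scale of like length, against 4.80% of genes, and 4 were higher, against 17.1%. These 4 were eIF-4a, at 1.02 in males and 0.73 in females, Ef1gamma, at 1.57 in males and 0.98 in females, eIF2B-delta and eIF3-S8. The part of mRNA length in the results, and what makes changes vary with it, was not tested.

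**Figure D5:**
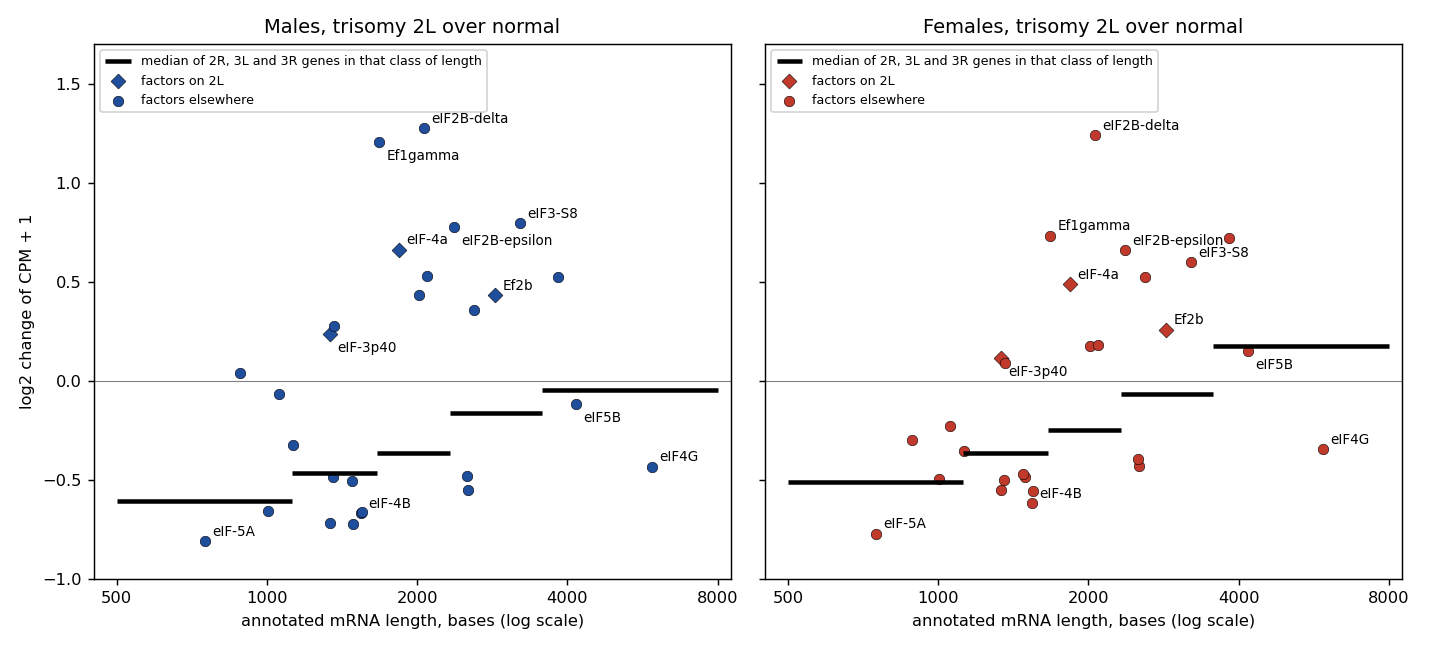
Log2 change of CPM + 1, trisomic over normal, against annotated mRNA length (log axis) for the 27 body-wide factors in males (left) and females (right), with black bars at the median for 2R, 3L and 3R in each of 5 classes of length; the outermost bars are drawn only within the axis. The bars climb from -0.61 to -0.05 in males and from -0.51 to 0.17 in females, and eIF2B-delta, Ef1gamma, eIF2B-epsilon, eIF3-S8 and eIF-4a lie above them in both panels.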

How the data were processed

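RNA-seq of larvae was used as deposited. The deposited values are counts per 1000000 (CPM), made and averaged within each group by the authors, per the file headers, in 2 tables that share 1 scale of 1000000 CPM per group over all transcript rows. TopHat, HTSeq and the build dm3 are named without version or role, per the submitters' processing notes; the sources used here name no annotation or strand setting. The depth per sample is unknown. In each group 373 to 645 rows carry an identical low value, at which no row of the factors stands. This value was 0.389 CPM in trisomic males, 2.81 CPM in trisomic females, 0.845 CPM in normal males and 2.22 CPM in normal females. It was thus higher in both female groups, and above the 1.04 CPM of eIF4E-3 in trisomic females.

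Rows were averaged to 1 value per gene, and changes computed as log2 of CPM with a pseudocount of 1. Size classes were 1.5-fold between karyotypes and 2-fold between sexes, with an average of at least 10 CPM where stated. Background shares are over all genes with the same level filter. Lengths, names and overlaps came from another genome release (Release 6), so no coordinates are given; lengths are means over annotated mRNAs. Steps were tested on simulated data. All factors were accounted for; full values were given for those past 1.5-fold in both sexes or 2-fold between sexes in normal larvae, those on 2L and the most abundant of each role. Of the pathway genes outside the rule, 7 listed names were not found. The members, lists, filter and size classes were chosen with earlier results of these data known. Python 3.11.15, numpy 2.4.6, pandas 2.3.3 and matplotlib 3.10.9 were used.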

Additional observations from a re-analysis of the deposited data

Results flagged for a closer look

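eIF4E-3 differed between karyotypes in opposite directions in the sexes. The change in males was -1.53, with 17.5 CPM in trisomic and 52.4 CPM in normal males. In females the change was 0.82, with 1.04 CPM in trisomic and 0.155 CPM in normal females. Without replicate values the difference was not tested. The change in females was 2.16 with a pseudocount of 0.1 CPM and 0.23 with one of 5 CPM, and the sources used here do not say how values this low were set. Of all genes, 3477 were under 1 CPM in normal females, and 715 of these were at 1 CPM or more in trisomic females. Among the testis and spermatocyte genes this held for 4 of 22, and 9 of the 29 on that list were lower in trisomic than in normal females. The other 4 male-limited eIF4E forms were under 0.2 CPM in females of both karyotypes.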

How the results depend on the processing

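No paired analysis was possible because each group is a single column of authors' means, and no replicate could be left out. With a pseudocount of 5 CPM, 3 factors were at least 1.5-fold higher in trisomic females. With the sum over transcript rows the median change of all factors in females turned to 0.061, and with no filter to 0.041, in place of -0.06. With the male-limited factors included, this median lies so near 0 that its sign is not fixed. Without the 6 male-limited factors it was -0.26 with the mean of at least 10 CPM and -0.23 with no filter. With a mean of at least 20 CPM, 3 factors were higher in females and 5 lower in males, 1 was 2-fold higher in males than in females in each karyotype, the 2L difference in males was 0.81, and the median was -0.12 in males and -0.18 in females. Centred, 10 were higher and 3 lower in males and 0 lower in females, with medians of -0.070 in males and 0.14 in females. Without the male-limited factors the centred medians had the opposite signs, at 0.22 in males and -0.066 in females. Against genes of like mRNA length, a scale chosen after seeing the data, 10 were higher and 4 lower in males and 0 lower in females, the 2L difference in males was 0.75, and the medians were -0.028 in males and 0.25 in females. With a 2-fold size class, 2 were higher and 3 lower in trisomic males, and 1 higher and 0 lower in trisomic females. Shares of all genes were not taken with the pseudocount of 5 CPM, the mean of at least 20 CPM or the 2-fold class between karyotypes. Counts under these settings therefore do not show whether the factors differ from all genes. Why these values moved was not tested, except that a stricter filter leaves 23 of the 30 factors. Of 792 values of single factors under the alternatives other than the level filters, 746 kept their side of the size class, 25 no longer passed it and 21 newly passed it. Precision cannot be given, since the depth is unknown.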

Other observations

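Other genes of the translation pathway, fixed as a list or named eIF or eEF by the reference annotation, numbered 31, and 25 had a mean of at least 10 CPM. Of these 25, in males 5 were at least 1.5-fold higher and 10 lower in trisomic larvae, and in females 3 were higher and 7 lower. Over all genes with that mean these shares were 17.0% and 29.5% in males and 15.3% and 18.3% in females. The 3 that were higher in both sexes were EfTuM, the mitochondrial elongation factor Tu, Elf, the release factor eRF3, and CG7414, the initiation factor eIF2A. EfTuM had 39.9 CPM in trisomic males, 31.0 CPM in trisomic females, 14.1 CPM in normal males and 13.2 CPM in normal females, with changes of 1.44 in males and 1.18 in females. CG7414 had 175.6 CPM in trisomic males, 134.8 CPM in trisomic females, 86.0 CPM in normal males and 75.8 CPM in normal females.

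Termination and recycling factors were at different levels from each other. eRF1, which reads the stop codon, had 91.4 CPM in trisomic males, 92.7 CPM in trisomic females, 176.2 CPM in normal males and 149.2 CPM in normal females. Elf, its partner, on 2L, had 129.6 CPM in trisomic males, 126.7 CPM in trisomic females, 72.8 CPM in normal males and 66.6 CPM in normal females. eRF1 was thus lower and Elf higher in trisomic larvae of both sexes. pix, the ribosome recycling ATPase, had changes of -0.62 in males and -0.71 in females. CG17737, the initiation factor eIF1, had changes of -0.85 in males and -0.78 in females, and Paip2, an inhibitor of the poly(A)-binding protein, of -1.11 in males and -0.69 in females. Among regulators, Lk6, a kinase of eIF4E, had changes of 0.83 in males and 0.50 in females, and pAbp, the poly(A)-binding protein, had 0.02 in males and -0.05 in females, the last of which turns positive when centred.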
